A study of Saccharomyces cerevisiae with 18 samples.

Results

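The messenger RNAs of 10 genes that carry pyruvate to ethanol or to acetate in *Saccharomyces cerevisiae* were followed across 6 strains. The genes were listed by name, with no threshold on their levels, as members of 3 enzyme families: the pyruvate decarboxylase genes *PDC1*, *PDC5* and *PDC6*, the alcohol dehydrogenase genes *ADH1* and *ADH2*, and the aldehyde dehydrogenase genes *ALD2*, *ALD3*, *ALD4*, *ALD5* and *ALD6*. All 10 were found among the 5830 genes of the deposited table, and all 10 passed the filter on low values that left 5786 genes for the tests. The study asked how the chromatin remodeler ISW1a, an Isw1 enzyme bound to Ioc3, acts on transcription, and whether the NuA4 acetyltransferase and SWR1 remodeler, which share the subunit Yaf9, bear on that. Poly(A) RNA was sequenced from 18 independent cultures in rich glucose medium (YPD), with 3 cultures per strain.

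The strains were *ioc3*Δ, which has no Ioc3 and therefore no ISW1a; *ioc3*Δ*cHLB*, whose Ioc3 has a partly deleted HLB domain, the part that touches linker DNA; *ioc3*Δ *yaf9*Δ; *ioc3*Δ*cHLB yaf9*Δ; *yaf9*Δ; and wild type. Each carries the label BY4742 as its background and FLAG as its tag, and how many transformants stand behind a strain is not given in the sources used here. All changes are deletions or truncations that were present throughout growth.

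In glucose, yeast turns pyruvate into acetaldehyde with pyruvate decarboxylase and reduces the acetaldehyde to ethanol with alcohol dehydrogenase, which gives back the NAD+ that glycolysis uses. A smaller flow is oxidized by aldehyde dehydrogenases to acetate, which is needed for cytosolic acetyl-CoA and, through Ald6, for NADPH. Several of these genes are known to be repressed while glucose lasts and to be induced later or under stress.

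The strain labels were checked first. *IOC3* had a mean of 0.119 CPM in *ioc3*Δ and 0.0453 CPM in strain *ioc3*Δ *yaf9*Δ, against 43.0 to 64.9 CPM in the other 4 strains, where CPM is the deposited scale, reads divided by the effective library size. *YAF9* had a mean of 0 to 0.131 CPM in the 3 *yaf9*Δ strains, against 30.4 to 33.8 CPM in the others, and 0 reads allow up to 0.256 to 0.603 CPM per library. Several markers of the background went against the label BY4742, which is a strain of mating type alpha. Per library, 6 a-specific genes summed to 1753 to 2762 CPM and 4 alpha-specific genes to 30.4 to 63.2 CPM. No gene of either list was at 0 in any library. The alpha-factor genes *MFALPHA1* and *MFALPHA2* had no more than 4.2 and 3.05 CPM. *SAG1*, also alpha-specific, had strain means of 28.1 to 45.9 CPM, above the 6.96 to 12.8 CPM of the a-specific *ASG7*. *LYS2* (156 to 228 CPM per library), *URA3* (113 to 209 CPM) and *LEU2* (42.8 to 205 CPM), which that background lacks, were also read in every strain. *MET15*, which that background keeps, was read at 149 to 1114 CPM per library. The 6 strains shared these features, and their part in the results was not tested. Libraries held 5145170 to 10192972 reads. In 2 libraries, wild type replicate 2 and *ioc3*Δ*cHLB* replicate 3, 56 genes of mitochondrial ribosomal proteins had mean levels of 5.58 and 5.57 on the log2 scale, against 6.08 to 7.22 in the other 16, and calls of members that were lost or gained without these 2 libraries are given both ways.

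Some members are close copies of each other, so the letters that tell them apart decide where their reads were counted. Over the coding sequence, *ALD2* and *ALD3* share 91.8% of bases, *ADH1* and *ADH2* 88.8%, and *PDC1* and *PDC5* 87.2%. The 90 bases of each pair with the most differences are shown as examples, from the R64 assembly (sacCer3) of RefSeq, read on the coding strand, with bases that differ between the copies in capitals:
*ALD2* (chrXIII:602658-602747, minus strand): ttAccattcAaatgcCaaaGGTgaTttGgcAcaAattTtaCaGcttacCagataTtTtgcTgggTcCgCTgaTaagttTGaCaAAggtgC
*ALD3* (chrXIII:600448-600537, minus strand): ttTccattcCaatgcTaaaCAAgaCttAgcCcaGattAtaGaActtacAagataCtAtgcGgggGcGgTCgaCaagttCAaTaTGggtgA
*ADH1* (chrXV:159881-159970, minus strand): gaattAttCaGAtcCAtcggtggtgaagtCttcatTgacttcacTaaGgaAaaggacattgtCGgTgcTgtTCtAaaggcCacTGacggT
*ADH2* (chrXIII:873624-873713, minus strand): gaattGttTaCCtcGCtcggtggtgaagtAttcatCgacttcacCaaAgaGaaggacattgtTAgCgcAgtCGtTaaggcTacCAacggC
*PDC1* (chrXII:232993-233082, minus strand): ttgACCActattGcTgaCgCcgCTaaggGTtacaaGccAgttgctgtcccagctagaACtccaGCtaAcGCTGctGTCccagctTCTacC
*PDC5* (chrXII:411722-411811, plus strand): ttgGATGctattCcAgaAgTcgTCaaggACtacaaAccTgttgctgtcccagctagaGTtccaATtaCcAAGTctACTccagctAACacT
These stretches hold 28, 22 and 30 differences, but other stretches hold none: the longest identical run is 329 bases between *ALD2* and *ALD3*, 189 between *ADH1* and *ADH2* and 65 between *PDC1* and *PDC5*. Of all windows of 76 bases, the length of a read, 29.6% of those in *ALD2* and *ALD3* and 11.7% of those in *ADH1* and *ADH2* occur more than once in the genome, against 0% in the other 6 members. How the counting treated read pairs that fit both copies is not given in the sources used here, so the levels of *ALD2*, *ALD3* and *ADH2* are uncertain to that extent.

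A gene was called where limma gave an adjusted p under 0.1 (Benjamini-Hochberg over the 5786 genes) and the strains differed by at least 1.5-fold, the thresholds of the study. In *ioc3*Δ against wild type, 5 of 10 members were called, 3 higher (*PDC6*, *ADH1*, *ALD2*) and 2 lower (*ALD5*, *ALD6*), where 12.2% of all genes tested were called, 9.04% higher and 3.11% lower. With the partly deleted HLB domain instead, *ioc3*Δ*cHLB* against wild type, 0 members were called, where 0.346% of all genes were, 0.328% higher and 0.0173% lower. In *yaf9*Δ against wild type, *ALD3* and *ALD4* were called higher and *PDC5* and *ALD5* lower, with 7.52% of all genes called, 3.91% higher and 3.61% lower. Without Yaf9, 4 members were lower where Ioc3 was also absent (*PDC1*, *ALD3*, *ALD4*, *ALD6*; 9.7% of all genes called, 3.53% higher and 6.17% lower), and *ALD3* and *ALD6* were lower where the HLB domain was truncated (4.63% of all genes called, 2% higher and 2.63% lower). The median log2 difference of the members was -0.20 in *ioc3*Δ, 0.08 in *ioc3*Δ*cHLB* and 0.49 in *yaf9*Δ against wild type, and -0.28 in *ioc3*Δ *yaf9*Δ and -0.13 in *ioc3*Δ*cHLB yaf9*Δ against *yaf9*Δ, where the medians of all genes lay between -0.01 and 0.01.

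Separation of the libraries was common over the whole table and is given with that background. The 3 libraries of one strain lay wholly above or below those of the other for 4 of 10 members in *ioc3*Δ against wild type (37.3% of all genes), 1 in *ioc3*Δ*cHLB* (9.11%), 8 in *yaf9*Δ (40.3%), 5 in *ioc3*Δ *yaf9*Δ (32.5%) and 8 in *ioc3*Δ*cHLB yaf9*Δ (28.6%), each against wild type. Against *yaf9*Δ there were 6 such members in *ioc3*Δ *yaf9*Δ (42.8%) and as many in *ioc3*Δ*cHLB yaf9*Δ (31.9%). There were 2 for *ioc3*Δ *yaf9*Δ against *ioc3*Δ (41%), 6 for *ioc3*Δ*cHLB yaf9*Δ against *ioc3*Δ*cHLB* (27.8%), 2 for *ioc3*Δ*cHLB* against *ioc3*Δ (31.2%) and 5 when *ioc3*Δ*cHLB yaf9*Δ was set against *ioc3*Δ *yaf9*Δ (22.1%).

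**Figure D1:**
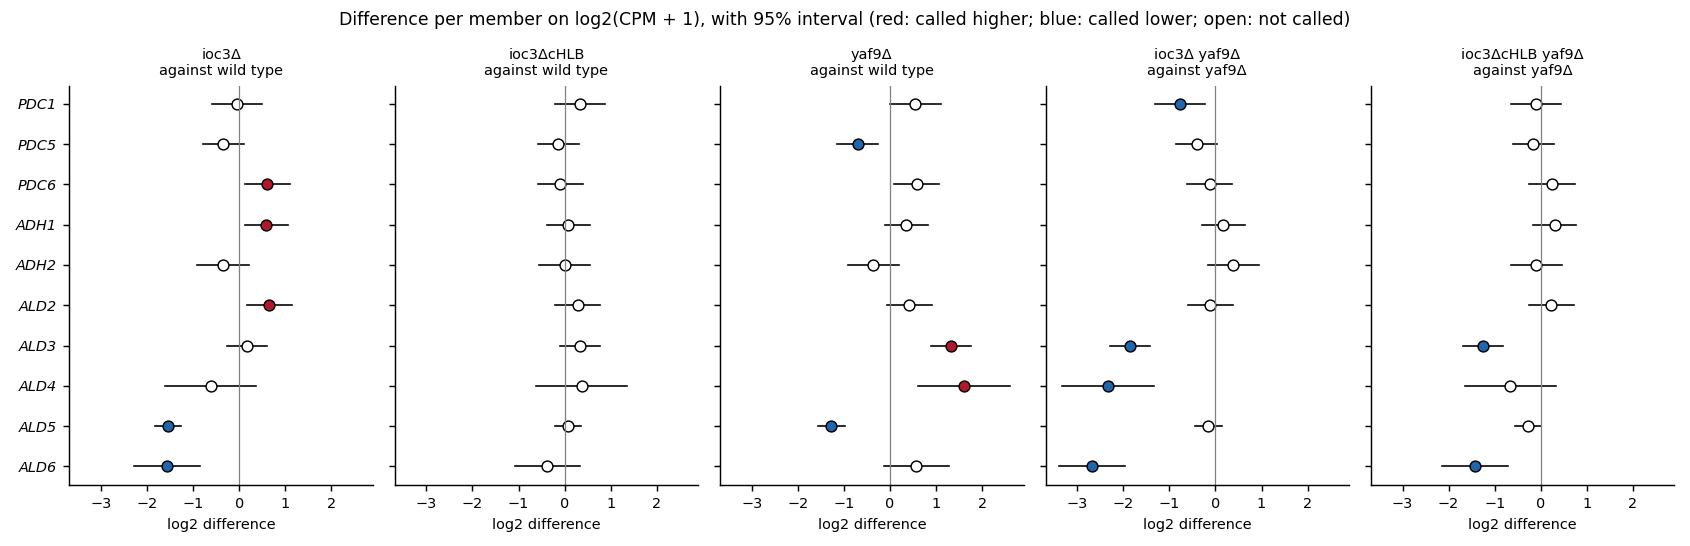
Difference of each member in 5 comparisons, as log2(CPM + 1) of the first strain named minus the second, with the 95% interval from limma over 18 libraries. Filled points were called higher (red) or lower (blue). All 10 points of *ioc3*Δ*cHLB* against wild type are open, and *ALD3* is red in *yaf9*Δ against wild type and blue in both comparisons against *yaf9*Δ.

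The genes are taken in the order of the pathway, and the plot of levels by strain shows every library.

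**Figure D2:**
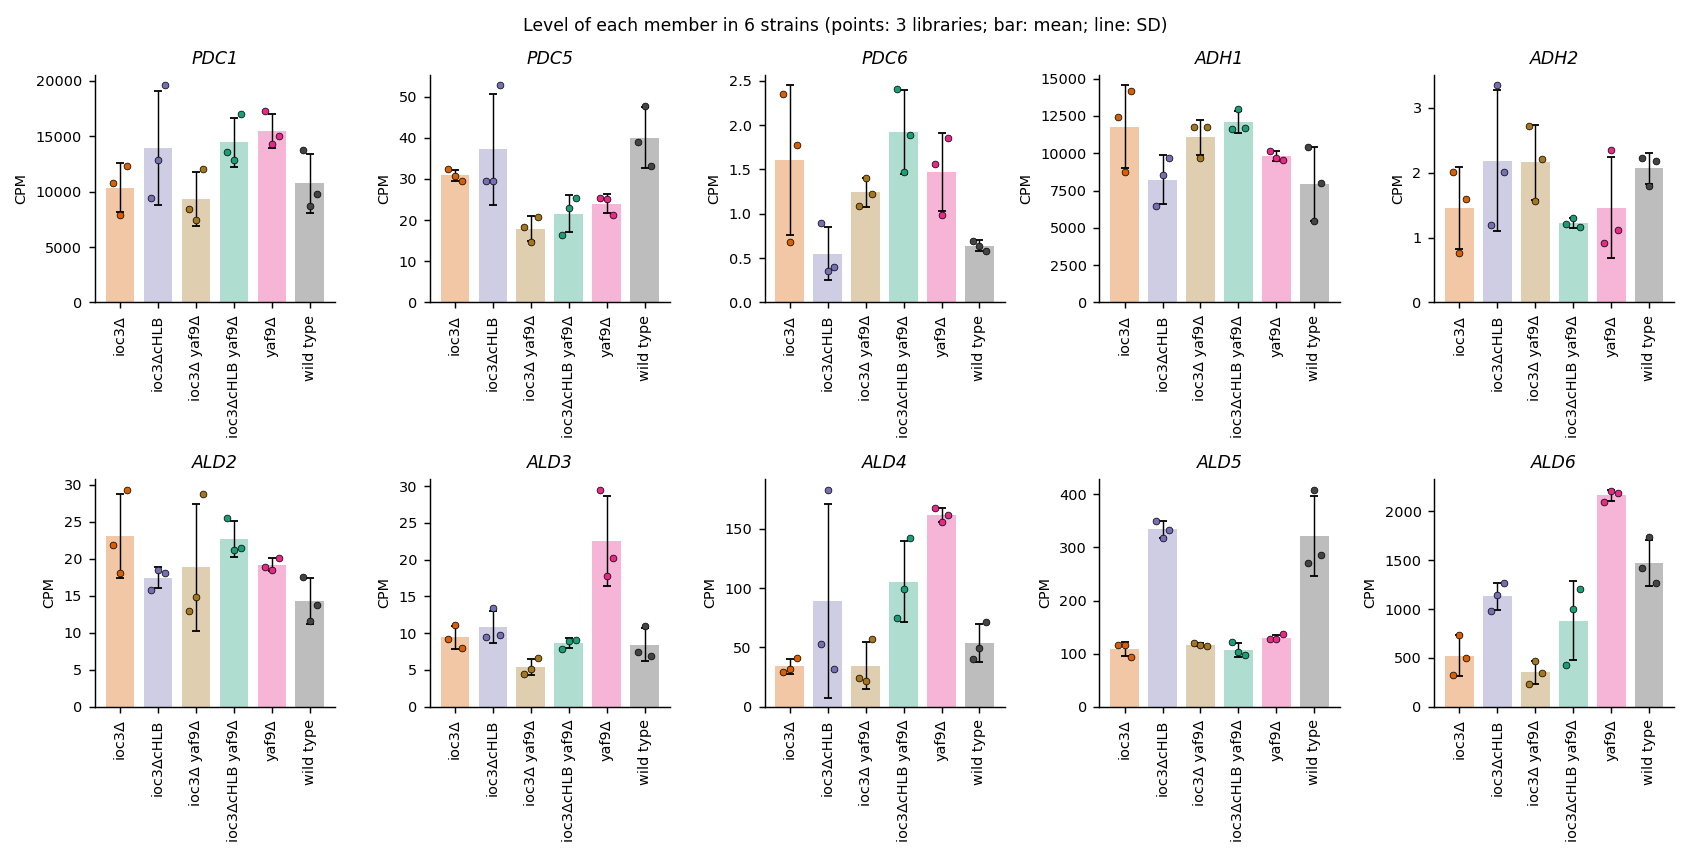
Level of each member in CPM, on axes that start at 0, with 3 libraries per strain as points, the mean as a bar and the SD as a line. *ALD5* stands at 271 to 409 CPM in wild type and 318 to 350.4 CPM in strain *ioc3*Δ*cHLB* and at no more than 137 CPM in the other 4 strains, while *ADH2* and *PDC6* stay under 4 CPM throughout.

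*PDC1* (YLR044C, chrXII:232390-234081), the main pyruvate decarboxylase gene, was read at 10819.8, 7934 and 12283 CPM in *ioc3*Δ, with 9413, 12833 and 19596 CPM for the HLB truncation, *ioc3*Δ*cHLB*. Its values were 8395, 7444 and 12062 CPM in strain *ioc3*Δ *yaf9*Δ, 13545, 12859 and 16999 CPM in strain *ioc3*Δ*cHLB yaf9*Δ, 17243, 14282 and 14999 CPM in *yaf9*Δ, and 13757, 8736 and 9783 CPM in wild type. No strain stood clear of all others, but the *ioc3*Δ *yaf9*Δ libraries all lay under the *yaf9*Δ ones. That difference was the only call for *PDC1*, at -0.76 ± 0.26 on the log2(CPM + 1) scale (SE; adjusted p = 0.061, limma). It was lost without *ioc3*Δ *yaf9*Δ replicate 1 or 2 or without any one of the 3 *yaf9*Δ libraries, at -0.62 to -0.82 and adjusted p of 0.107 to 0.200. In *yaf9*Δ against wild type the *PDC1* libraries did not overlap, yet the gene was not called (0.55 ± 0.26, adjusted p = 0.19). Without wild type replicate 1 it was, at 0.74. Libraries of *ioc3*Δ*cHLB yaf9*Δ all lay above those of *ioc3*Δ *yaf9*Δ, again without a call (0.66 ± 0.26, adjusted p = 0.145, limma). This difference was called by DESeq2 (0.63, adjusted p = 0.095) and without *ioc3*Δ *yaf9*Δ replicate 3 (0.86).

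*PDC5* (YLR134W, chrXII:410723-412414) encodes a second pyruvate decarboxylase, which is known to be expressed strongly when *PDC1* is lost. It was low here, and lower in all 3 strains without Yaf9: 18.2, 14.7 and 20.9 CPM in strain *ioc3*Δ *yaf9*Δ, 16.5, 22.9 and 25.3 CPM in strain *ioc3*Δ*cHLB yaf9*Δ, then 25.5, 25.1 and 21.3 CPM in *yaf9*Δ. Strains with Yaf9 had 32.3, 30.8 and 29.5 CPM in *ioc3*Δ, 29.4, 29.4 and 52.7 CPM in strain *ioc3*Δ*cHLB*, then 39.1, 47.8 and 33.1 CPM in wild type. All 9 libraries without Yaf9 therefore lay below all 9 with it. Against wild type, *PDC5* fell by 1.11 ± 0.21 in *ioc3*Δ *yaf9*Δ (adjusted p = 0.0019, limma), by 0.87 ± 0.21 in *ioc3*Δ*cHLB yaf9*Δ (adjusted p = 0.012) and by 0.70 ± 0.21 in *yaf9*Δ (adjusted p = 0.042). Loss of Yaf9 also lowered it within *ioc3*Δ, by 0.76 ± 0.21 (adjusted p = 0.014), and within *ioc3*Δ*cHLB*, by 0.73 ± 0.21 (adjusted p = 0.031).

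The highest *PDC5* values, 52.7 and 47.8 CPM, were those of *ioc3*Δ*cHLB* replicate 3 and wild type replicate 2, the libraries with low mitochondrial ribosomal protein genes. Without these 2 libraries the difference was -0.57 in *yaf9*Δ against wild type and -0.45 in *ioc3*Δ*cHLB yaf9*Δ against *ioc3*Δ*cHLB*, and neither was then called. The *yaf9*Δ call was also lost without wild type replicate 2 alone (-0.57) or without *yaf9*Δ replicate 3 (-0.62), and the call within *ioc3*Δ*cHLB* without *ioc3*Δ*cHLB* replicate 3 (-0.45) or *ioc3*Δ*cHLB yaf9*Δ replicate 1 (-0.55). The effect of Yaf9 loss on *PDC5* did not differ with the *IOC3* allele beyond its error: the interaction was -0.06 (95% interval -0.68 to 0.57) for *ioc3*Δ and -0.02 (-0.65 to 0.60) for *ioc3*Δ*cHLB*.

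*PDC6* (YGR087C, chrVII:651290-652981), the minor isoform, known from work on sulfur limitation, was near the limit of the libraries. It had 2.35, 0.684 and 1.78 CPM in *ioc3*Δ, 0.901, 0.352 and 0.401 CPM in strain *ioc3*Δ*cHLB*, 1.09, 1.41 and 1.23 CPM in strain *ioc3*Δ *yaf9*Δ, 2.41, 1.47 and 1.89 CPM in strain *ioc3*Δ*cHLB yaf9*Δ, 1.57, 0.991 and 1.85 CPM in *yaf9*Δ, and 0.698, 0.640 and 0.575 CPM in wild type. These rest on 11 to 39 reads per strain, and the *ioc3*Δ*cHLB yaf9*Δ, *ioc3*Δ *yaf9*Δ and *yaf9*Δ libraries were all above the wild type ones. *PDC6* was higher in *ioc3*Δ*cHLB yaf9*Δ than in wild type by 0.82 ± 0.23 (adjusted p = 0.028, limma) and than in *ioc3*Δ*cHLB* by 0.92 ± 0.23 (adjusted p = 0.017), with no overlap in either case. At such low levels the size depended on the pseudocount: the same differences were 1.27 and 1.48 with a pseudocount of 0.25, still called, and 0.29 and 0.32 with a pseudocount of 5, where they no longer reached 1.5-fold. On the recovered reads edgeR gave 1.56 and 1.76 for them and DESeq2 1.61 and 1.81, all called. The call in *ioc3*Δ against wild type (0.61 ± 0.23, adjusted p = 0.076) had overlapping libraries. It was lost without *ioc3*Δ replicate 1 or 3 or any one wild type library (0.40 to 0.64, adjusted p of 0.126 to 0.291), and in the fit of these strains alone with the replicate number as a block (adjusted p = 0.140). The lower value of *ioc3*Δ*cHLB* against *ioc3*Δ (-0.71 ± 0.23, adjusted p = 0.052) was lost on leaving out *ioc3*Δ replicate 1, *ioc3*Δ replicate 3, *ioc3*Δ*cHLB* replicate 2 or *ioc3*Δ*cHLB* replicate 3, at -0.50 to -0.64.

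Per kilobase of coding sequence, *PDC1* made up 99.6% to 99.8% of the summed RNA of the 3 genes in every strain mean, *PDC5* 0.149% to 0.388% and *PDC6* 0.00478% to 0.0149%.

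*ADH1* (YOL086C, chrXV:159548-160594), the alcohol dehydrogenase that makes ethanol, had 12422, 8719.7 and 14155 CPM in *ioc3*Δ, 6429, 8555 and 9656 CPM in strain *ioc3*Δ*cHLB*, 11772, 9703 and 11739 CPM in strain *ioc3*Δ *yaf9*Δ, 11641, 12929 and 11663 CPM in strain *ioc3*Δ*cHLB yaf9*Δ, 10157, 9696 and 9514 CPM in *yaf9*Δ, and 10433, 5452 and 7985 CPM in wild type. The *ioc3*Δ*cHLB yaf9*Δ libraries were all above the wild type ones, while those of *ioc3*Δ overlapped with wild type. Both differences were called, at 0.65 ± 0.22 (adjusted p = 0.060, limma) and 0.58 ± 0.22 (adjusted p = 0.073), which are 1.57-fold and, at the threshold itself, 1.5-fold. Wild type replicate 2 had the lowest *ADH1* of all 18 libraries. Without it the differences were 0.40 (adjusted p = 0.234) and 0.34 (adjusted p = 0.319), and neither was called. Calls were lost as well without *ioc3*Δ*cHLB yaf9*Δ replicate 2 or 3 (0.60 and 0.67), without *ioc3*Δ replicate 1 or 3 (0.53 and 0.44) and without wild type replicate 3 (0.68 and 0.61), and on the recovered reads edgeR and DESeq2 put *ADH1* in *ioc3*Δ just under 1.5-fold (0.58 and 0.56). *ADH1* was not called in *ioc3*Δ*cHLB yaf9*Δ against *ioc3*Δ*cHLB* (0.57 ± 0.22) or in *ioc3*Δ*cHLB* against *ioc3*Δ (-0.51 ± 0.22), but without the 2 libraries that stand apart both were, at 0.70 (adjusted p = 0.036) and -0.64 (adjusted p = 0.049).

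*ADH2* (YMR303C, chrXIII:873291-874337) encodes the isozyme that takes ethanol back up once glucose is gone, and is a textbook case of glucose repression. It had 2.01, 0.769 and 1.60 CPM in *ioc3*Δ, 1.2, 3.35 and 2.01 CPM in strain *ioc3*Δ*cHLB*, 2.72, 1.56 and 2.21 CPM in strain *ioc3*Δ *yaf9*Δ, 1.21, 1.31 and 1.16 CPM in strain *ioc3*Δ*cHLB yaf9*Δ, 0.914, 2.35 and 1.11 CPM in *yaf9*Δ, and 2.23, 1.79 and 2.18 CPM in wild type. It was called in none of the 13 comparisons under limma. The interval of its difference from wild type ran from -0.91 to 0.20 in *ioc3*Δ, from -0.56 to 0.56 in *ioc3*Δ*cHLB*, from -0.53 to 0.59 in *ioc3*Δ *yaf9*Δ, from -1.02 to 0.09 in *ioc3*Δ*cHLB yaf9*Δ and from -0.92 to 0.19 in *yaf9*Δ. These values rest on 22 to 49 reads per strain, and the *ioc3*Δ*cHLB yaf9*Δ libraries alone lay wholly below wild type. Per kilobase, *ADH2* was 0.0101% to 0.0272% of the summed *ADH1* and *ADH2* RNA.

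The aldehyde dehydrogenases held most of the differences. *ALD6* (YPL061W, chrXVI:432588-434090), the cytosolic NADP+ enzyme that makes most acetate on glucose, was read at 321, 739 and 503 CPM in *ioc3*Δ, 984, 1139 and 1266 CPM in strain *ioc3*Δ*cHLB*, 236, 470.0 and 346 CPM in strain *ioc3*Δ *yaf9*Δ, 429, 1006 and 1207 CPM in strain *ioc3*Δ*cHLB yaf9*Δ, 2099, 2205 and 2190.2 CPM in *yaf9*Δ, and 1416, 1734 and 1266 CPM in wild type. The strains without Ioc3 were lowest and *yaf9*Δ was highest, with every *yaf9*Δ library above every other library. Against wild type, *ALD6* fell by 1.57 ± 0.34 in *ioc3*Δ (2.96-fold, adjusted p = 0.0054, limma) and by 2.11 ± 0.34 in *ioc3*Δ *yaf9*Δ (4.32-fold, adjusted p = 0.00055). Against *yaf9*Δ it fell by 2.68 ± 0.34 in *ioc3*Δ *yaf9*Δ (6.4-fold, adjusted p = 8.9e-05) and by 1.43 ± 0.34 in *ioc3*Δ*cHLB yaf9*Δ (2.69-fold, adjusted p = 0.023). These 4 falls were called under every alternative run.

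The higher *ALD6* level in *yaf9*Δ than in wild type was not called (0.57 ± 0.34, adjusted p = 0.31), although the libraries did not overlap. The truncation left more *ALD6* RNA than the deletion, with a difference of *ioc3*Δ*cHLB* over *ioc3*Δ of 1.19 ± 0.34 (adjusted p = 0.025), a call lost without *ioc3*Δ replicate 1 (0.88). Without Yaf9 the same comparison of alleles gave 1.25 ± 0.34 (adjusted p = 0.053) with overlapping libraries, since *ioc3*Δ*cHLB yaf9*Δ replicate 1 (429 CPM) lay under *ioc3*Δ *yaf9*Δ replicate 2 (470.0 CPM). That call was lost without *ioc3*Δ *yaf9*Δ replicate 1 (0.99) or *ioc3*Δ*cHLB yaf9*Δ replicate 2 or 3 (1.09 and 0.96). The lower level in *ioc3*Δ*cHLB yaf9*Δ than in wild type (-0.86 ± 0.34, adjusted p = 0.102) missed the threshold; it was called with the replicate number as a block (adjusted p = 0.037) and without *ioc3*Δ*cHLB yaf9*Δ replicate 3 (-1.15), while without replicate 1 of that strain it was -0.41 (adjusted p = 0.334).

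*ALD4* (YOR374W, chrXV:1039840-1041399), the main mitochondrial aldehyde dehydrogenase and a glucose-repressed gene, had 29.1, 31.7 and 41.4 CPM in *ioc3*Δ, 53.0, 183 and 31.6 CPM in strain *ioc3*Δ*cHLB*, 24.1, 22.0 and 57.3 CPM in strain *ioc3*Δ *yaf9*Δ, 74.4, 99.5 and 142 CPM in strain *ioc3*Δ*cHLB yaf9*Δ, 167, 155 and 161 CPM in *yaf9*Δ, and 40.3, 49.4 and 71.2 CPM in wild type. The *yaf9*Δ libraries lay between 155 and 167 CPM and above all wild type and *ioc3*Δ ones, while the 3 *ioc3*Δ*cHLB* cultures spread more than any other strain did for any member (a coefficient of variation of 91.8%). *ALD4* rose by 1.61 ± 0.47 in *yaf9*Δ against wild type (3.05-fold, adjusted p = 0.039, limma), a call lost without *yaf9*Δ replicate 1 (1.58, adjusted p = 0.116) or 3 (1.61, adjusted p = 0.104). It fell by 2.33 ± 0.47 in *ioc3*Δ *yaf9*Δ against *yaf9*Δ (5.02-fold, adjusted p = 0.0043), which was called under every alternative. The HLB truncation without Yaf9 gave -0.66 ± 0.47 (adjusted p = 0.46), not called, with every *ioc3*Δ*cHLB yaf9*Δ library nonetheless below the *yaf9*Δ ones. Between the 2 alleles without Yaf9, *ALD4* was 3.18-fold higher in *ioc3*Δ*cHLB yaf9*Δ than in *ioc3*Δ *yaf9*Δ (1.67 ± 0.47, adjusted p = 0.057). That call was lost without *ioc3*Δ *yaf9*Δ replicate 1 or 2 or *ioc3*Δ*cHLB yaf9*Δ replicate 2 or 3 (1.43 to 1.69). *ALD4* in *ioc3*Δ against wild type (-0.62 ± 0.47) was not called, but it was where those 2 strains alone were fitted, without (adjusted p = 0.095) or with (adjusted p = 0.019) the replicate number as a block. In *ioc3*Δ*cHLB* against *ioc3*Δ the difference was 0.99 ± 0.47 and not called. Without the 2 libraries that stand apart it was 1.52 and called (adjusted p = 0.033), and edgeR (1.36, adjusted p = 0.072) and DESeq2 (1.40, adjusted p = 0.057) called it on all libraries. Of those 2 libraries, this comparison holds *ioc3*Δ*cHLB* replicate 3 (31.6 CPM), and *ioc3*Δ*cHLB* replicate 2 (183 CPM) was kept. With 1 library left out the difference ranged from 0.27 to 1.52. Within *ioc3*Δ*cHLB*, the loss of Yaf9 gave 0.58 ± 0.47, not called, and without *ioc3*Δ*cHLB* replicate 2 it gave 1.29 and was called (adjusted p = 0.036). The lowest value of this difference with 1 library left out was 0.04.

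*ALD5* (YER073W, chrV:304030-305592), a mitochondrial enzyme known for a part in the upkeep of the electron transport chain, split the strains into 2 levels. It had 117, 116 and 93.0 CPM in *ioc3*Δ, 121, 116 and 115 CPM in strain *ioc3*Δ *yaf9*Δ, 122, 103 and 97.3 CPM in strain *ioc3*Δ*cHLB yaf9*Δ and 127, 127 and 137 CPM in *yaf9*Δ. The high level was 350.4, 318 and 334 CPM in strain *ioc3*Δ*cHLB* and 271, 409 and 285 CPM in wild type. No library lay between 137 and 271 CPM. Against wild type it fell by 1.54 ± 0.14 in *ioc3*Δ (2.91-fold, adjusted p = 1.6e-06, limma), by 1.43 ± 0.14 in *ioc3*Δ *yaf9*Δ (adjusted p = 4.9e-06), by 1.56 ± 0.14 in *ioc3*Δ*cHLB yaf9*Δ (adjusted p = 3.1e-06) and by 1.27 ± 0.14 in *yaf9*Δ (adjusted p = 2.4e-05). With the HLB truncation alone the difference from wild type was 0.08, with an interval of -0.21 to 0.36. *ALD5* was 3.07-fold higher with the truncation than with the deletion of *IOC3* (1.62 ± 0.14, adjusted p = 1.3e-06, limma) and fell by 1.63 ± 0.14 in *ioc3*Δ*cHLB yaf9*Δ against *ioc3*Δ*cHLB* (adjusted p = 2.0e-06). All 6 of these calls held under every alternative run, among them the fits without wild type replicate 2 (409 CPM) and without both libraries that stand apart.

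*ALD2* (YMR170C, chrXIII:601562-603082) and *ALD3* (YMR169C, chrXIII:599352-600872) lie next to each other on the same strand and encode cytosolic enzymes known from the making of beta-alanine, and both are known as stress-induced. *ALD2* had 21.8, 18.1 and 29.3 CPM in *ioc3*Δ, 15.8, 18.5 and 18.1 CPM in strain *ioc3*Δ*cHLB*, 12.9, 14.9 and 28.7 CPM in strain *ioc3*Δ *yaf9*Δ, 25.5, 21.2 and 21.4 CPM in strain *ioc3*Δ*cHLB yaf9*Δ, 18.9, 18.5 and 20.1 CPM in *yaf9*Δ, and 17.6, 11.5 and 13.7 CPM in wild type. Wild type was lowest on average, and all *ioc3*Δ, *ioc3*Δ*cHLB yaf9*Δ and *yaf9*Δ libraries were above it. The difference was 0.65 ± 0.23 in both *ioc3*Δ (adjusted p = 0.058, limma) and *ioc3*Δ*cHLB yaf9*Δ (adjusted p = 0.072), and both were called. Without wild type replicate 2 it was 0.52 in each and not called (adjusted p = 0.186 and 0.196). Leaving out *ioc3*Δ replicate 1 or 3, any *ioc3*Δ*cHLB yaf9*Δ library or wild type replicate 3 also ended the call it touched, at 0.47 to 0.69.

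*ALD3* behaved otherwise than its neighbour, with 9.17, 11.1 and 8.0 CPM in *ioc3*Δ, 9.46, 13.4 and 9.77 CPM in strain *ioc3*Δ*cHLB*, 4.49, 5.16 and 6.63 CPM in strain *ioc3*Δ *yaf9*Δ, 7.84, 8.98 and 9.02 CPM in strain *ioc3*Δ*cHLB yaf9*Δ, 29.5, 17.8 and 20.3 CPM in *yaf9*Δ, and 7.40, 11.0 and 6.90 CPM in wild type. Only the *yaf9*Δ libraries rose above 14 CPM. *ALD3* was 2.48-fold higher in *yaf9*Δ than in wild type (1.31 ± 0.20, adjusted p = 0.00085, limma), 3.62-fold lower in *ioc3*Δ *yaf9*Δ than in *yaf9*Δ (-1.86 ± 0.20, adjusted p = 3.0e-05) and, with the HLB truncation in place of the deletion, 2.4-fold lower than in *yaf9*Δ (-1.26 ± 0.20, adjusted p = 0.0026). These 3 calls held under every alternative run. *ALD2* changed by 0.42 ± 0.23, -0.11 ± 0.23 and 0.23 ± 0.23 in the same comparisons and was not called in any. Without *ioc3*Δ *yaf9*Δ replicate 3 (28.7 CPM), *ALD2* was called in *ioc3*Δ *yaf9*Δ against *ioc3*Δ (-0.67, adjusted p = 0.015, limma). In that setting it was also called in *ioc3*Δ*cHLB yaf9*Δ against *ioc3*Δ *yaf9*Δ (0.67, adjusted p = 0.054). Loss of Yaf9 within *ioc3*Δ lowered *ALD3* by 0.70 ± 0.20 (adjusted p = 0.020), so that the sign of the Yaf9 effect differed with the *IOC3* allele. With a pseudocount of 5 this fall was -0.47, under 1.5-fold. All *ioc3*Δ *yaf9*Δ libraries lay below wild type, at a difference of -0.54 ± 0.20 (adjusted p = 0.080, limma) that was under 1.5-fold and not called. It was called with a pseudocount of 0.25 (-0.60) and without *ioc3*Δ *yaf9*Δ replicate 3 (-0.67) or wild type replicate 1 (-0.61) or 3 (-0.66).

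Interaction terms tested whether the effect of an *IOC3* allele differed without and with Yaf9. For *ioc3*Δ, 2 of 10 members were called, where 9.38% of all genes were, 3.27% with a positive and 6.12% with a negative term. *ALD3* had an interaction of -2.01 ± 0.29 (adjusted p = 0.0020, limma), which joins -1.86 without Yaf9 and 0.16 with Yaf9. *ALD5* had one of 1.39 ± 0.19 (adjusted p = 0.0016), which joins -0.15 without Yaf9 and -1.54 with Yaf9. Both held under every alternative. *ALD4* (-1.71 ± 0.66, adjusted p = 0.12) and *ALD6* (-1.11 ± 0.47, adjusted p = 0.16) missed the threshold. *ALD6* was called with the replicate number as a block (adjusted p = 0.073), with only the compared groups (adjusted p = 0.088) and by DESeq2 (adjusted p = 0.098). *ALD4* was called with only the compared groups (adjusted p = 0.025) and without *ioc3*Δ *yaf9*Δ replicate 3 (-2.14). *PDC6* (-0.74) and *ALD2* (-0.76) were not called either. Without *ioc3*Δ replicate 2 both were (-1.03 and -0.91), and *ALD2* also without *ioc3*Δ *yaf9*Δ replicate 3 (-1.09). For *ioc3*Δ*cHLB*, 0.121% of all genes were called, 0.0173% with a positive and 0.104% with a negative term, and 1 member, *ALD3*, was among them (-1.60 ± 0.29, adjusted p = 0.078). That call was lost with the block (adjusted p = 0.127), with edgeR (adjusted p = 0.103) and in 9 of the 12 fits that left out 1 library, at -1.40 to -1.69, among them those without each of the *ioc3*Δ*cHLB* libraries, *ioc3*Δ*cHLB yaf9*Δ replicate 2 or 3, *yaf9*Δ replicate 1 or 3 and wild type replicate 1 or 3.

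**Figure D3:**
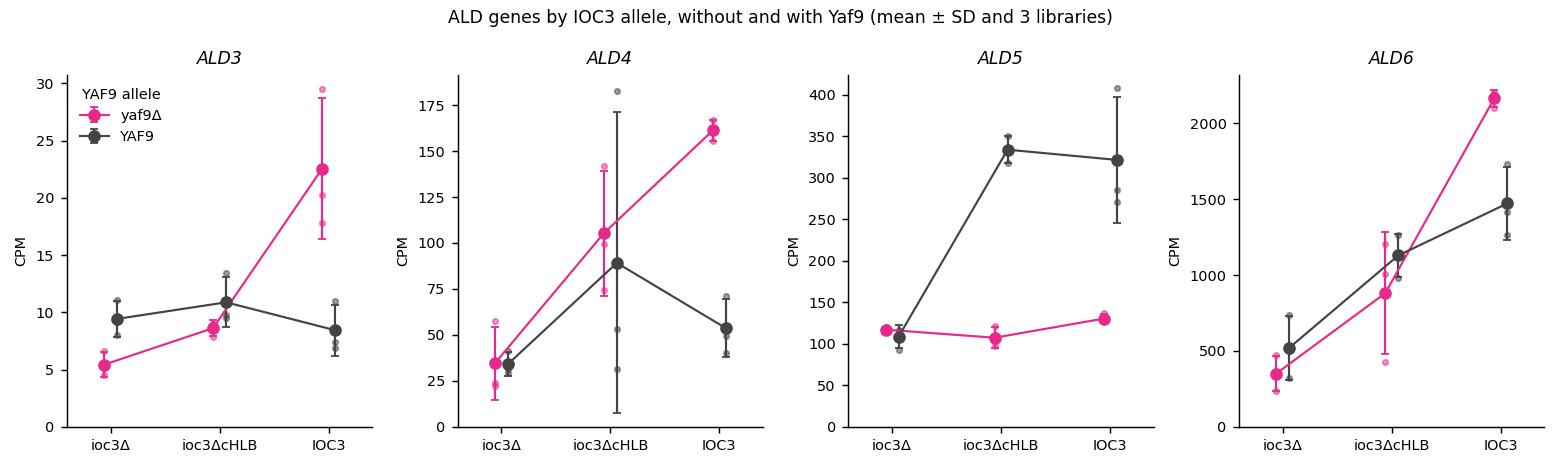
*ALD3*, *ALD4*, *ALD5* and *ALD6* in CPM by *IOC3* allele, with strains without Yaf9 in pink and strains with Yaf9 in grey, as mean ± SD and 3 libraries. In *ALD3* the pink line rises to 22.5 CPM at the intact *IOC3* allele while the grey line stays at 8.44 to 10.9 CPM, and in *ALD5* the pink line stays at 107 to 130.3 CPM while the grey line is at 334 and 322 CPM for *ioc3*Δ*cHLB* and intact *IOC3* and at 109 CPM for *ioc3*Δ.

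The effect of Yaf9 loss was also read within each *IOC3* allele. In *ioc3*Δ *yaf9*Δ against *ioc3*Δ, *PDC5* and *ALD3* were called, both lower, where 13.4% of all genes were called, 3.49% higher and 9.96% lower. Within the HLB truncation, that is *ioc3*Δ*cHLB yaf9*Δ against *ioc3*Δ*cHLB*, *ALD5* and *PDC5* were lower and *PDC6* was higher, where 8.92% of all genes were called, 3.85% higher and 5.06% lower. *PDC5* was thus lower in all 3 comparisons that remove Yaf9, whereas *ALD5* was lower where Ioc3, whole or truncated, was present and had a difference of 0.12 ± 0.14 where it was absent. Against wild type, the double mutants had 3 members called in *ioc3*Δ *yaf9*Δ (*PDC5*, *ALD5* and *ALD6*, all lower; 12.3% of all genes called, 5.95% higher and 6.38% lower) and 5 in *ioc3*Δ*cHLB yaf9*Δ (*PDC6*, *ADH1* and *ALD2* higher, *PDC5* and *ALD5* lower; 8.87%, of which 4.1% higher and 4.77% lower). Of the direct comparisons of the 2 alleles, *ioc3*Δ*cHLB* against *ioc3*Δ had 3 members called (*ALD5* and *ALD6* higher, *PDC6* lower; 9.99% of all genes, 2.42% higher and 7.57% lower) and *ioc3*Δ*cHLB yaf9*Δ against *ioc3*Δ *yaf9*Δ had 2, *ALD4* and *ALD6*, both higher (4.8%, of which 2.04% higher and 2.77% lower). These comparisons share strains, and their calls are not independent of each other.

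For *ioc3*Δ*cHLB* against wild type, no member had an unadjusted p under 0.05 in limma, where 330 of 5786 genes had. On the recovered reads edgeR and DESeq2 also called 0 members, and DESeq2 called 45 of all genes. The 95% intervals of the 10 differences lay between -1.09 (*ALD6*) and 1.36 (*ALD4*). The narrowest, that of *ALD5*, is the one that sets the tightest limit on a change. Of the members, *ALD6* alone had no overlap between the strains, by a margin under 1 CPM between the highest *ioc3*Δ*cHLB* and the lowest wild type library, with a difference of -0.38 ± 0.34; libraries did not overlap for 9.11% of all genes in this comparison.

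The make-up of the aldehyde dehydrogenase RNA followed from these levels. Per kilobase of coding sequence, *ALD6* gave 73.9% ± 8.1 of the summed RNA of the 5 genes in *ioc3*Δ, 72.1% ± 4.3 in *ioc3*Δ*cHLB*, 66.3% ± 8.1 in *ioc3*Δ *yaf9*Δ, 76.6% ± 9.3 in *ioc3*Δ*cHLB yaf9*Δ, 87.0% ± 0.68 in *yaf9*Δ and 79.3% ± 1.9 in wild type (SD, n = 3). *ALD5* had the next largest mean share in every strain but *yaf9*Δ, at 16.2% ± 5.9 in *ioc3*Δ, 20.7% ± 3.0 in *ioc3*Δ*cHLB*, 22.5% ± 6.2 in *ioc3*Δ *yaf9*Δ and 16.6% ± 1.5 in wild type. Its share was 10.8% ± 6.3 in *ioc3*Δ*cHLB yaf9*Δ, where *ALD4* had 9.38% ± 1.6, and 5.04% ± 0.17 in *yaf9*Δ, where *ALD4* had 6.25% ± 0.34. As strain means, *ALD2* gave 0.762% to 3.6% and *ALD3* 0.445% to 1.41%. All 10 members took 2.05% to 2.67% of the reads of a library as strain means, most of them *PDC1* and *ADH1* reads.

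**Figure D4:**
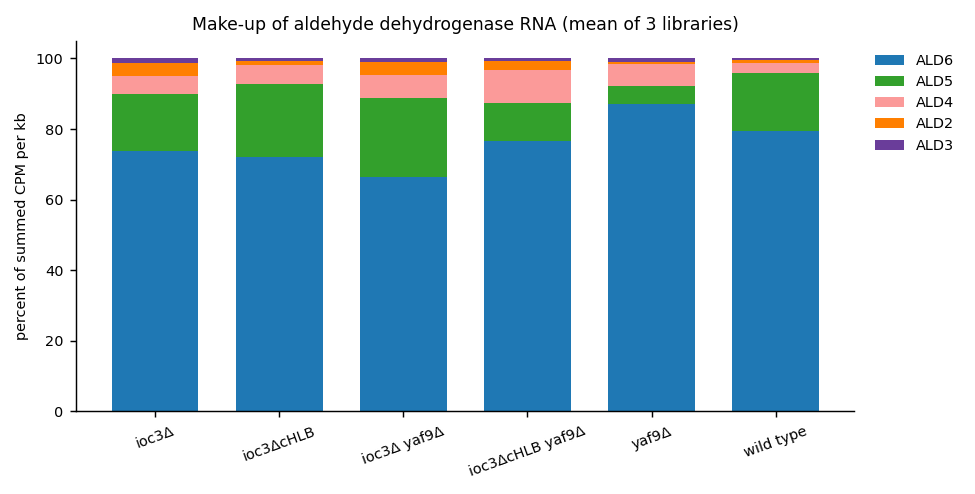
Share of each aldehyde dehydrogenase gene in the summed CPM per kilobase of coding sequence, as the mean of 3 libraries per strain. *ALD6* is the largest part in all 6 strains, from 66.3% in *ioc3*Δ *yaf9*Δ to 87.0% in *yaf9*Δ, and the *ALD5* part is smallest in *yaf9*Δ, at 5.04%.

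The order of the strain means differed from gene to gene. Neighbours in that order did not overlap between *yaf9*Δ and *ioc3*Δ *yaf9*Δ and between *yaf9*Δ and wild type for *ALD5*, between *yaf9*Δ and wild type and between *ioc3*Δ*cHLB* and wild type for *ALD6*, and between *yaf9*Δ and *ioc3*Δ*cHLB* and between *ioc3*Δ *yaf9*Δ and wild type for *ALD3*. *PDC5* had 1 such gap, between *yaf9*Δ and *ioc3*Δ, as did *PDC6* (*ioc3*Δ *yaf9*Δ and wild type), *ALD2* (*ioc3*Δ*cHLB yaf9*Δ and *yaf9*Δ) and *ALD4* (*ioc3*Δ*cHLB yaf9*Δ and *yaf9*Δ). For *PDC1*, *ADH1* and *ADH2* the libraries of all neighbouring strains overlapped. Of all genes, 42.8% had no overlap in *ioc3*Δ *yaf9*Δ against *yaf9*Δ and 31.9% in *ioc3*Δ*cHLB yaf9*Δ against *yaf9*Δ. Against wild type the shares were 40.3% in *yaf9*Δ, 32.5% in *ioc3*Δ *yaf9*Δ and 9.11% in *ioc3*Δ*cHLB*. For *yaf9*Δ with *ioc3*Δ or with *ioc3*Δ*cHLB* the share was not counted. Strain means differed by at most 6.17-fold in *ALD6*, 4.73-fold in *ALD4*, 4.16-fold in *ALD3*, 3.49-fold in *PDC6*, 3.11-fold in *ALD5* and 2.23-fold in *PDC5*, and by 1.78-fold in *ADH2*, 1.67-fold in *PDC1*, 1.62-fold in *ALD2* and 1.52-fold in *ADH1*.

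The 500 bases before each start codon were searched on both strands for 3 motifs. The stress element read by Msn2 and Msn4 was searched as AGGGG. The motif read by Gcr1 was searched as CTTCC. The core read by Mig1 was searched as GCGGGG. Neighbouring matches of these motifs can share 1 or 2 bases. Of 6000 yeast genes with such a window, 34.1% held the stress element, 66.1% the Gcr1 motif and 5.77% the Mig1 core. The stress element was found upstream of 7 of the 10 members, with 2 matches each in *ALD3* and *ALD4* and 1 each in *PDC1*, *PDC5*, *ADH1*, *ALD5* and *ALD6*. *ALD3* and *ALD4* were also the members called higher in *yaf9*Δ against wild type. All *yaf9*Δ libraries lay above wild type as well for *PDC1*, *PDC6*, *ALD2* and *ALD6*, which had 1, 0, 0 and 1 match. The share of all genes with 2 matches was not counted. The stretches that hold the matches of *ALD3* and *ALD4* are shown on the coding strand, with matches in capitals. CCCCT is the element on the other strand:
*ALD3* (chrXIII:601093-601252, minus strand): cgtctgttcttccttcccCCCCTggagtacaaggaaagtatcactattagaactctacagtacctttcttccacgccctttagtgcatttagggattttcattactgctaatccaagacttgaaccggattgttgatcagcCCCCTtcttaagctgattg
*ALD4* (chrXV:1039510-1039669, plus strand): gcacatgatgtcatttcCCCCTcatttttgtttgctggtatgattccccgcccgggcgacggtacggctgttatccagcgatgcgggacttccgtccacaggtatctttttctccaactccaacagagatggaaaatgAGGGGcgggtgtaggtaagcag
Counted back from the start codon, the matches end at bases 358 and 235 in *ALD3* and at bases 309 and 188 in *ALD4*. *PDC6*, *ADH2* and *ALD2* had no stress element in this window. The Gcr1 motif had 5 matches in *ADH1*, 4 in *ALD3* and 2 each in *ALD4* and *ALD5*, and the Mig1 core had 1 match, in *ALD4*. A match is a run of letters and says nothing of binding, and members with 1 match included genes that fell or were not called in *yaf9*Δ.

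Among 4910 named genes with a mean of at least 5 CPM, the 3 whose log2(CPM + 1) values over the 18 libraries had the highest Pearson correlation with each member were listed. All points share their libraries and, within a strain, their genotype. *ADH1* ran with *PGI1* (r = 0.974), *GPM1* (r = 0.971) and *FBA1* (r = 0.964), which encode enzymes of glycolysis, and after the strain means were taken out r was still 0.963, 0.970 and 0.976. The spread of *ADH1* among cultures of 1 strain was therefore shared with these genes. *ALD3* ran with *CTT1* (cytosolic catalase; r = 0.890), *GAD1* (glutamate decarboxylase; r = 0.889) and *RTN2* (a reticulon; r = 0.880), and *ALD4* with *GPH1* (glycogen phosphorylase; r = 0.930), *RTN2* (r = 0.893) and *SOH1* (a Mediator subunit; r = 0.836). With the strain means taken out these fell to 0.606, 0.638 and 0.679 for *ALD3* and to 0.788, 0.758 and 0.522 for *ALD4*, so part of the likeness lay between strains. *CTT1* had 55.9, 39.5 and 55.5 CPM in *yaf9*Δ against 8.65, 15.9 and 13.7 CPM in wild type, and 48.3 CPM in strain *ioc3*Δ*cHLB* replicate 2, the culture in which *ALD4* was 183 CPM. *GPH1* was also highest of its strain there, at 74.2 CPM against 24.3 and 28.8 CPM in strain *ioc3*Δ*cHLB* replicates 1 and 3.

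*ALD5* was most like *LEU1* (isopropylmalate isomerase), *OAC1* (a mitochondrial oxaloacetate carrier) and *BAT1* (the mitochondrial branched-chain aminotransferase). As *ALD5* had 2 separate levels, no correlation over all 18 libraries is given. In the 12 libraries of *ioc3*Δ, *ioc3*Δ *yaf9*Δ, *ioc3*Δ*cHLB yaf9*Δ and *yaf9*Δ, *LEU1* had 133 to 194 CPM, against 833 to 1649 CPM in the 6 libraries of *ioc3*Δ*cHLB* and wild type. *OAC1* had 36.5 to 93.8 CPM against 253 to 494 CPM and *BAT1* 237 to 425 CPM against 992 to 1665 CPM in the same groups. All 3 thus showed the same 2 levels as *ALD5* without overlap. They were picked by r with *ALD5* over these same 18 libraries, so the shared levels follow from the choice. The share of all genes with such levels was not counted. Within the 12 low libraries r with *ALD5* was 0.43, 0.67 and 0.52, and within the 6 high libraries it was 0.78, 0.79 and 0.55. Wild type replicate 2, a library that stands apart, was the highest of the 6 in *ALD5* (409 CPM), *LEU1* (1649 CPM) and *OAC1* (494 CPM). The r of the high libraries was not computed without it. With the strain means taken out of all 18 libraries, r was 0.60, 0.63 and 0.40. *LEU2*, one of the genes read against the label of the strains, had 42.8 to 99.5 CPM in the 12 libraries and 105 to 205 CPM in the 6.

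**Figure D5:**
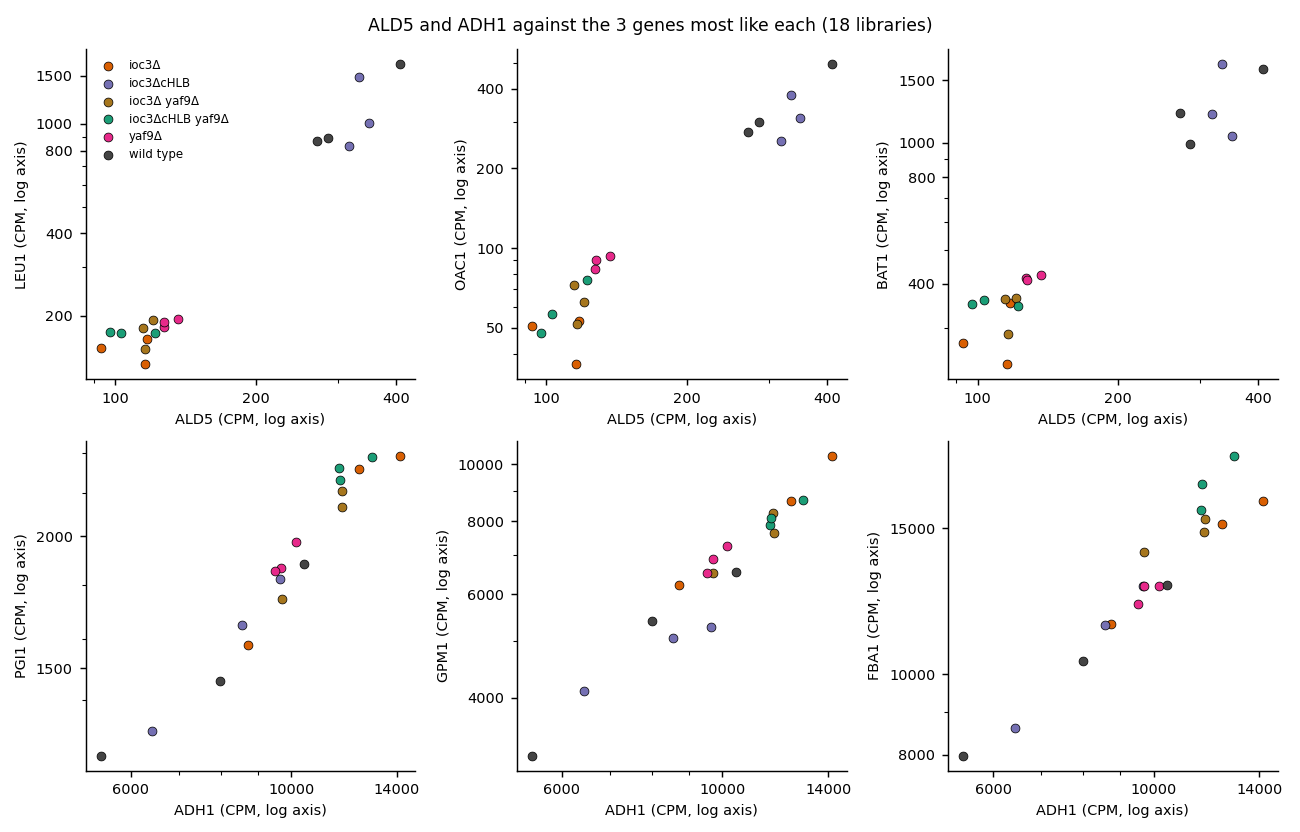
*ALD5* (upper panels) and *ADH1* (lower panels) against the 3 genes most like each, in CPM on log axes, with 1 point per library and 18 libraries. *ALD5* and its partners form 2 clouds, *ioc3*Δ*cHLB* and wild type apart from the other 4 strains, while *ADH1* and its partners form 1 band in which libraries of the same strain lie apart. The partners were picked by correlation over these same libraries.

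The other members had these nearest genes. *PDC1* ran with *MRH1* (r = 0.936), *YIP1* (r = 0.914) and *TSC13* (r = 0.890), *PDC5* with *TMN2* (r = 0.893), *APA2* (r = 0.880) and *HEL1* (r = 0.876), and *ALD6* with *COX4* (r = 0.945), *PNS1* (r = 0.935) and *COX8* (r = 0.932), of which *COX4* and *COX8* encode subunits of cytochrome c oxidase. *ALD2* ran with *COQ9* (r = 0.892), *USA1* (r = 0.842) and *UGA1* (r = 0.841). Without the strain means r was 0.818 to 0.922 for the partners of *PDC1*, 0.767 to 0.833 for those of *PDC5* and 0.845 to 0.881 for those of *ALD2*, whereas for *ALD6* it was 0.820, 0.748 and 0.439. The weakest likeness was that of the rarely read members, *ADH2* with *SPE4* (r = 0.764, and 0.722 without the strain means) and *PDC6* with *GLD1* (r = 0.829, and 0.480). *ADH2* rests on 22 to 49 and *PDC6* on 11 to 39 reads per strain. What r the picking of the highest among 4910 genes would give by itself was not tested.

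Between members, the highest r was 0.735, for *ALD3* and *ALD6*, followed by 0.712 for *ALD3* and *ALD4* and 0.711 for *ADH1* and *ALD2*. With the strain means taken out these were 0.360, 0.428 and 0.571. The highest r within strains was 0.780, for *PDC1* and *ADH1*, which had 0.345 over all libraries. *ALD5*, whose 2 levels bar a pooled r, ran against *ADH1* within strains (r = -0.719). Wild type replicate 2, a library that stands apart, had the highest *ALD5* (409 CPM) and the lowest *ADH1* (5452 CPM) of all libraries. This r was not computed without it. The neighbours *ALD2* and *ALD3* had 0.0908 over all libraries and 0.0140 within strains.

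Genes around the pathway were described from lists, beside the share of all genes called in the same comparison. Of 10 other alcohol and aldehyde dehydrogenases, 4 were called higher and 0 lower in *ioc3*Δ against wild type (median 0.40), where 9.04% of all genes were called higher and 3.11% lower with a median of 0.01. Without the 2 libraries that stand apart, 3 were called higher. Among them were *BDH2*, a putative medium-chain dehydrogenase, with 29.8 ± 6.2 CPM in *ioc3*Δ and 7.36 ± 2.2 CPM in wild type (SD, n = 3 each; 1.89 on the log2 scale), and *ADH5*, an alcohol dehydrogenase isozyme, with 59.0 ± 9.3 CPM in *ioc3*Δ and 31.5 ± 5.1 CPM in wild type (0.89). In *ioc3*Δ *yaf9*Δ against *ioc3*Δ, 6 of the 10 were called lower (median -0.62), where 9.96% of all genes were with a median of -0.03, led by *BDH1*, butanediol dehydrogenase, with 56.7 ± 27.6 CPM in strain *ioc3*Δ *yaf9*Δ and 154 ± 37.0 CPM in *ioc3*Δ (-1.50). None was called in *yaf9*Δ or *ioc3*Δ*cHLB* against wild type, though 1 was in *ioc3*Δ*cHLB* without the 2 libraries.

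Of 13 genes for pyruvate and acetyl-CoA, 1 was called higher and 4 lower in *ioc3*Δ *yaf9*Δ against *yaf9*Δ (median -0.35), where 3.53% of all genes were called higher and 6.17% lower with a median of 0.01. *ACS2*, the acetyl-CoA synthetase that uses the acetate made by Ald6 on glucose, had 743 ± 45.1 CPM in strain *ioc3*Δ *yaf9*Δ and 1479 ± 59.8 CPM in *yaf9*Δ (-0.99, adjusted p = 0.024, limma), and was also called lower in *ioc3*Δ than in wild type (-0.79, adjusted p = 0.051). The call against wild type was lost without the 2 libraries that stand apart, at -0.46, under 1.5-fold. *ACH1*, a mitochondrial CoA transferase, had 16.5 ± 0.84 CPM in strain *ioc3*Δ *yaf9*Δ and 42.5 ± 4.1 CPM in *yaf9*Δ (-1.31), and *PYC1*, pyruvate carboxylase, had 87.2 ± 24.3 CPM in strain *ioc3*Δ *yaf9*Δ and 166 ± 13.5 CPM in *yaf9*Δ (-0.95). In *yaf9*Δ against wild type, *PYC1* (0.70) and *PDA1*, a pyruvate dehydrogenase subunit (0.59), were the 2 genes called, both higher, where 3.91% of all genes were. Without the 2 libraries that stand apart they had 0.61 (adjusted p = 0.144) and 0.53 (adjusted p = 0.108), and neither was called. In that fit 1 other gene of the list was called higher, where 362 of all genes were called in either direction. No gene of this list was called in *ioc3*Δ*cHLB* against wild type or in *ioc3*Δ*cHLB yaf9*Δ against *yaf9*Δ.

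In the glycerol branch, which also regenerates NAD+, 2 of 7 genes were called lower in *ioc3*Δ *yaf9*Δ against *yaf9*Δ (median -0.39), where 6.17% of all genes were called lower with a median of 0.01. They were *GPP2*, glycerol phosphatase, with 54.5 ± 44.2 CPM in strain *ioc3*Δ *yaf9*Δ and 115 ± 7.6 CPM in *yaf9*Δ (-1.34), and *STL1*, a glycerol importer, with 1.02 ± 0.43 CPM in strain *ioc3*Δ *yaf9*Δ and 2.64 ± 0.28 CPM in *yaf9*Δ (-0.87). Of 16 regulators, 4 were called higher in *ioc3*Δ against wild type (median 0.06), where 9.04% of all genes were with a median of 0.01, and as many without the 2 libraries that stand apart. Among them were *CAT8*, an activator of genes for growth without glucose, with 8.24 ± 0.76 CPM in *ioc3*Δ and 2.48 ± 0.22 CPM in wild type (1.41), and *ADR1*, the activator of *ADH2*, with 28.4 ± 4.7 CPM in *ioc3*Δ and 16.5 ± 8.8 CPM in wild type (0.84, adjusted p = 0.046; 1.22 without the 2 libraries). *CAT8* was the 1 regulator called in *ioc3*Δ*cHLB* against wild type (5.27 ± 0.82 CPM in strain *ioc3*Δ*cHLB* and 2.48 ± 0.22 CPM in wild type, 0.84). Of 8 thiamine genes, which serve the cofactor of pyruvate decarboxylase, 0 were called in *ioc3*Δ, *ioc3*Δ*cHLB* or *yaf9*Δ against wild type, and the thiamine transporter gene *THI7* was lower in *ioc3*Δ *yaf9*Δ (90.6 ± 7.9 CPM) and *ioc3*Δ*cHLB yaf9*Δ (89.1 ± 4.3 CPM) than in *yaf9*Δ (151 ± 4.2 CPM).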

How the data were processed

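Messenger RNA of 18 cultures was sequenced as read pairs of 76 bases. Per the submitters' processing notes, the tools were TopHat2 2.0.10, Bowtie2 2.0, HTSeq, edgeR 3.6.2, limma 3.20.4 and R 3.1.0, with sacCer3. The deposited signal is linear CPM, which the authors made with edgeR by scaling read counts to the effective library size. Whole reads were recovered from these steps for 100% of values within 0.01 reads, and 1 read was worth 0.0854 to 0.201 CPM.

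Unless another tool is named, adjusted p-values are those of limma 3.58.1 (R 4.3.3; lmFit, contrasts.fit and eBayes with trend) on log2(CPM + 1), over all 18 libraries with a mean per strain, for the 5786 genes that reached 1 CPM in 3 or more libraries. Benjamini-Hochberg adjustment was made within each of 13 comparisons, and ± after a difference is its SE. The script was tested on simulated data. Alternatives were other pseudocounts (0.25 and 5), dropping the filter, scaling by median of ratios, fitting just the compared strains, a block for the replicate number, a threshold of 0.05, each library left out, the 2 libraries that stand apart left out (for the lists of other genes, added after seeing the data), and edgeR 4.0.16 and DESeq2 1.42.0 on recovered reads. Replicate numbers were checked for pairing by the correlation of deviations: in 2 of 15 pairs of strains all 3 correlations were over 0.1 (*ioc3*Δ with wild type, *ioc3*Δ with *ioc3*Δ *yaf9*Δ), and for these a block in a fit of the compared strains alone was added after seeing the data.

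All members were named. From each other list, some of the 3 genes with the largest change among those called in a comparison were named. In *ioc3*Δ against wild type, *ADH7* (1.01) ranked above *ADH5*, and the regulator *THI2* (1.07) above *ADR1*, and neither is described. The 3 genes most alike to each member were named, and the nearest alone for *ADH2* and *PDC6*. The members and lists were chosen with earlier results of these data known. Of the table's genes, 5631 matched the R64 annotation of RefSeq, and upstream windows and coding sequences were read from that genome with python 3.11.15. The 3 libraries of a strain are independent cultures, and replicates differed by more than sampling noise (a chi-square over genes was 2.76 to 56.5 times its degrees of freedom).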

Additional observations from a re-analysis of the deposited data

Results flagged for a closer look

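The interaction test of limma called *ALD3* for both *IOC3* alleles and *ALD5* for *ioc3*Δ alone. For *ALD3*, the effect of *ioc3*Δ was -1.86 on the log2(CPM + 1) scale without Yaf9 and 0.16 with Yaf9, a difference of -2.01455 (adjusted p = 0.0020). The effect of *ioc3*Δ*cHLB* on *ALD3* was -1.26 without Yaf9 and 0.34 with Yaf9, a difference of -1.60462 (adjusted p = 0.078). That call was lost in 12 of 22 alternatives, among them edgeR (adjusted p = 0.103) and the replicate block (adjusted p = 0.127). For *ALD5*, the effect of *ioc3*Δ was -0.15 without Yaf9 and -1.54 with Yaf9, a difference of 1.38829 (adjusted p = 0.0016). The *ALD5* interaction of *ioc3*Δ*cHLB* was -0.36 (adjusted p = 0.84, limma) and not called.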

How the results depend on the processing

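Of 130 differences of members tested, 36 were called; 19 of these kept their call under every alternative run, 17 lost it under at least 1, 18 others gained one, and 0 changed sign. Members called in *ioc3*Δ against wild type numbered 5, and 2 at an adjusted p under 0.05, with a pseudocount of 5, or without the 2 libraries that stand apart. In *ioc3*Δ*cHLB yaf9*Δ against wild type the number was 5, and 3 under the same 3 settings. In *ioc3*Δ *yaf9*Δ against *ioc3*Δ it was 2, and 1 with a pseudocount of 5. In *ioc3*Δ*cHLB yaf9*Δ against *ioc3*Δ *yaf9*Δ it was 2, 0 at an adjusted p under 0.05 and 1 with only the compared groups. The *ioc3*Δ interaction had 2, and 4 with only the compared groups, and that of *ioc3*Δ*cHLB* had 1, and 0 at an adjusted p under 0.05, with the replicate block or with edgeR. The causes were not tested.

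With 1 library left out, members called ranged over 2 to 5 in *ioc3*Δ, 0 to 0 in *ioc3*Δ*cHLB*, 2 to 5 in *yaf9*Δ, 3 to 5 in *ioc3*Δ *yaf9*Δ and 3 to 5 in *ioc3*Δ*cHLB yaf9*Δ, each against wild type. Against *yaf9*Δ the ranges were 3 to 4 in *ioc3*Δ *yaf9*Δ and 2 to 2 in *ioc3*Δ*cHLB yaf9*Δ. With Yaf9 removed they were 2 to 3 within *ioc3*Δ and 2 to 4 within *ioc3*Δ*cHLB*. They were 1 to 4 in *ioc3*Δ*cHLB* against *ioc3*Δ, 0 to 5 in *ioc3*Δ*cHLB yaf9*Δ against *ioc3*Δ *yaf9*Δ, and 2 to 4 and 0 to 1 in the interactions of *ioc3*Δ and *ioc3*Δ*cHLB*. The replicate block across all strains gave 6 members in *ioc3*Δ*cHLB yaf9*Δ against wild type, 3 in the *ioc3*Δ interaction and 0 in that of *ioc3*Δ*cHLB*, and left the other counts of members as they were.

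Counts over all genes moved by more than 1.5 times in some settings. In *ioc3*Δ*cHLB* against wild type 20 genes were called, 2 with only the compared groups, 45 by DESeq2, 8 without *ioc3*Δ*cHLB* replicate 3 and 74 without wild type replicate 2. In *yaf9*Δ against wild type, 435 became 267 without *yaf9*Δ replicate 1. Against *yaf9*Δ, 561 became 320 without *ioc3*Δ *yaf9*Δ replicate 1 in that strain, and in *ioc3*Δ*cHLB yaf9*Δ 268 became 144 without *yaf9*Δ replicate 1 and 462 without *ioc3*Δ*cHLB yaf9*Δ replicate 1. With a pseudocount of 5 the counts were 271 in place of 435 in *yaf9*Δ, and 328 in place of 513 in *ioc3*Δ*cHLB yaf9*Δ, against wild type, and 318 in place of 516 for the loss of Yaf9 within *ioc3*Δ*cHLB*. In *ioc3*Δ*cHLB yaf9*Δ against *ioc3*Δ *yaf9*Δ, 278 genes were called, 126 at an adjusted p under 0.05, 31 without *ioc3*Δ *yaf9*Δ replicate 1 and 647 without *ioc3*Δ*cHLB yaf9*Δ replicate 1. The *ioc3*Δ interaction had 543, 300 at an adjusted p under 0.05, 181 without *ioc3*Δ replicate 3 and 859 without *ioc3*Δ *yaf9*Δ replicate 3. That of *ioc3*Δ*cHLB* had 7, 0 at an adjusted p under 0.05, 30 by DESeq2, 0 without *ioc3*Δ*cHLB* replicate 1 and 23 without wild type replicate 2. The least deeply read members, *PDC6* and *ADH2*, rest on 11 to 49 reads per strain.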
